A study of Drosophila melanogaster with 4 samples.

Results

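Weak H3K4me3 peaks that stood beside a single strong peak were examined in white prepupae of Drosophila melanogaster. Peaks on 2L, 2R, 3L, 3R, 4 and X were joined into stretches wherever the gap between neighbours was 500 bp or less. A weak-strong pair is a stretch of exactly 2 peaks, the weak peak with a score under 50 and the strong peak with a score of 200 or more. The rule found 228 such pairs, or 456 of the 7245 peaks on the 6 arms and of the 7743 peaks in the whole list. The pairs were chosen by their scores and by the limit of 500 bp on the gap. Their scores are therefore given as a description. Widths, which follow the score within this list, are set beside other peaks of like score where score classes are given. Other comparisons of width are not matched for score.

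Trimethylation of lysine 4 of histone H3 (H3K4me3) was mapped by chromatin immunoprecipitation and sequencing of whole animals, in 2 H3K4me3 libraries and 2 input libraries. All were from the Y cn bw sp strain, so nothing in genotype sets the libraries apart. Its alleles are y[1] and oc[R3.2] on X. On the second chromosome it carries Gr22b[1], Gr22d[1], cn[1] and CG33964[R4.2], with bw[1] and sp[1]. The third chromosome holds LysC[1], lab[R4.2] and MstProx[1], and also GstD5[1] and Rh6[1]. The authors deposited 1 peak list without values per library. No replicate error, input background or sequencing depth can therefore be set beside a pair, the pairs are no replicates of each other, and no test of a difference was run. The 95% intervals given with shares are exact Clopper-Pearson intervals that cover counting error over pairs only. Whole animals mix many tissues, so 2 neighbouring peaks need not come from the same cells.

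H3K4me3 is laid down by COMPASS-type methyltransferase complexes, built in flies around Set1, Trithorax or Trithorax-related. The mark gathers on nucleosomes at the starts of transcribed genes, reaching from the promoter into the first part of the gene. A nucleosome-poor promoter can part the marked nucleosomes on its flanks, and neighbouring genes with separate starts can each carry a block of the mark. The peak list does not tell these arrangements apart, and genes under the pairs were not analysed here.

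The weak peak was a short piece of signal close to the edge of a peak several times as wide. Over the 228 pairs the weak peak had a median width of 376.5 bp, with quartiles of 270 and 656 bp and a range of 201 to 2770 bp. The strong peak had a median width of 2488.5 bp (quartiles 1889.5 and 3783 bp, range 736 to 12705 bp). Within a pair the strong peak was 6.20 times as wide as the weak one at the median (quartiles 3.57 and 10.3). In 119 pairs (52.2%, interval 45.5 to 58.8%) the weak peak was under 400 bp wide, and in 25 (11.0%) it reached 1000 bp. The narrowest weak peaks, at 201 bp, were at the smallest width of any peak on the arms.

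The far edge of the weak peak lay a median of 652 bp from the strong peak (quartiles 493 and 908 bp, range 259 to 3251 bp). It lay within 500 bp of the strong peak in 61 pairs (26.8%) and within 1000 bp in 185 (81.1%, interval 75.4 to 86.0%). Most weak peaks thus occupied a narrow strip along the flank of the strong peak. The limit of 500 bp on the gap and the low scores chosen, which width follows, favour such short distances. With both peaks weak, the far edge of the lower-scoring peak lay within 1000 bp in 171 of 180 pairs (95%) and within 500 bp in 82 (45.6%). Within 1000 bp it lay in 1 of 173 pairs with both strong and in 174 of the 466 with an intermediate score. The strip is therefore not particular to weak peaks beside a strong one. The whole pair, weak peak, gap and strong peak, spanned a median of 3299.5 bp.

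**Figure D1:**
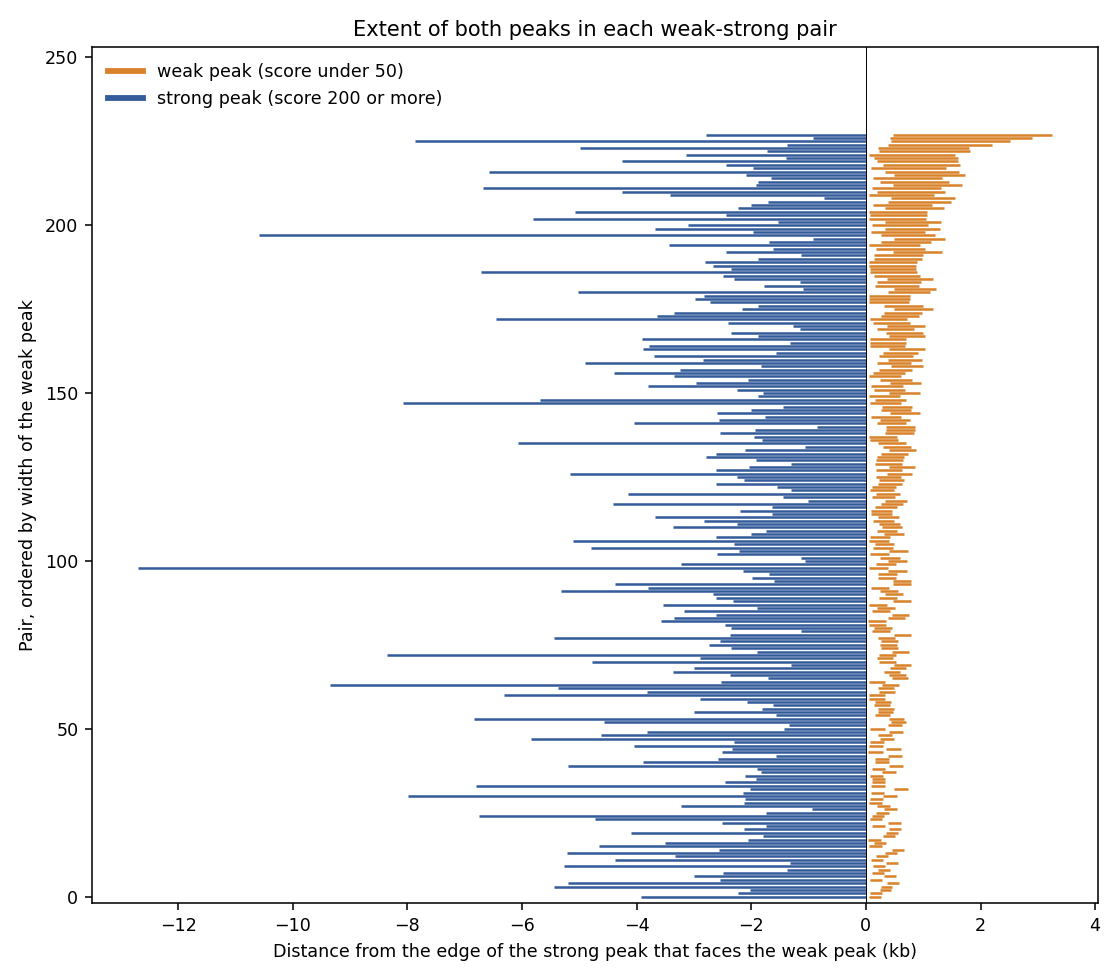
Extent of both peaks in each of the 228 weak-strong pairs, drawn to scale from the edge of the strong peak that faces the weak one (horizontal axis in kb, strong peak to the left of 0, weak peak to the right, whichever way the pair faces on its arm). Each row is 1 pair, ordered by the width of the weak peak; 185 of the weak peaks end within 1000 bp of the strong peak, while strong peaks reach up to 12705 bp away.

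The weak scores lay near the bottom of the list. Their median was 14.4 in the caller's own unit (quartiles 11.2 and 20.6, range 5.89 to 49.6), and the strong scores had a median of 295 (quartiles 243 and 352, range 200.4 to 582). The weak peak with the score of 5.89, on 3L, has the lowest score of all peaks on the arms. Of the weak peaks 124 (54.4%, interval 47.7 to 61.0%) scored under 15 and 14 (6.14%) scored 40 or more. Among the 1180 weak peaks that stood alone in their stretch, 430 (36.4%, interval 33.7 to 39.3%) scored under 15. The share under 15 was 47.2% for weak peaks in pairs of 2 weak peaks (170 of 360, interval 42.0 to 52.5%) and 47.5% for those in stretches of 3 or more (371 of 781, interval 43.95 to 51.1%). As a description of this list, scores under 15 were thus more common in each of these kinds of stretch than in weak peaks alone. Weak peaks paired with a single peak of intermediate score were not counted here.

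At the limits of the rule the scores ran on without a break. The highest weak scores inside were 49.6 and 49.3, and the pairs just outside had weak scores of 51.2 each. The lowest strong scores inside were 200.4 and 200.6, and the next pairs below had 198.5 and 197.0. The longest gaps inside were 498 and 497 bp, against 505 and 506 bp for the nearest pairs outside.

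The pairs made up 228 of the 1047 stretches of exactly 2 peaks on the arms (21.8%, interval 19.3 to 24.4%). The other 819 comprised 180 with both peaks weak, 173 with both strong and 466 with at least 1 peak of intermediate score. Weak-strong neighbours also occurred in longer stretches. Of the 7245 peaks on the arms 2741 were weak and 2578 strong. No share of weak-strong neighbours expected from this make-up was computed. In all, 596 of the 2519 neighbouring peaks 500 bp or less apart (23.7%) joined a weak and a strong peak. Of these 228 (38.3%) stood as a pair of their own, 183 (30.7%) lay in stretches of 3 peaks and 185 (31.0%) in longer ones. Among the 379 stretches of 3, a strong peak with a weak peak on either side occurred 11 times, and 8 had a weak peak between 2 strong ones. There were also 42 stretches of 2 weak peaks and a strong one at an end and 63 of 2 strong peaks and a weak one at an end. These counts each take in both orders along the arm, while the patterns before read the same either way. Counting both orders accounts for a factor of 2 at most, which is less than the step from 8 to 63 or from 11 to 42. A preference for an order was not tested. Over stretches of all lengths, 25 of the 2578 strong peaks (0.970%) had a weak peak within 500 bp on both flanks.

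The pairs held 8.84% of the 2578 strong peaks and 8.32% of the 2741 weak peaks of the arms. By score, members were 10.4% of the strong peaks from 200 to under 250 (64 of 618, interval 8.07 to 13.0%). The share was 9.40% from 250 to 300, 9.20% from 300 to 350 and 8.22% from 350 to 400. It was 6.35% of those at 400 or above (31 of 488, interval 4.36 to 8.90%). The share was lower in each higher class, although the intervals of neighbouring classes overlapped. The rule leaves out strong peaks in stretches of 3 or more. These were 170 of the 618 from 200 to under 250 and 197 of the 488 at 400 or above. The fall therefore does not show that stronger peaks less often had a weak neighbour. By width no such order appeared: from strong peaks under 1500 bp (9.12%) to those of 5000 bp or more (9.66%), the share stayed between 8.04 and 10.7% in 7 classes.

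The gap separated the peaks by a median of 206 bp in weak-strong pairs (quartiles 98.8 and 338.5 bp, range 44 to 498 bp) and 220 bp in the other stretches of 2 peaks (quartiles 122.5 and 322.5 bp, range 44 to 500 bp). The difference of −14 bp is small beside either spread. Set against pairs of 2 strong peaks (median 216 bp) the difference was −10 bp, and against pairs of 2 weak peaks (201.5 bp) it was 4.5 bp. No 2 peaks of the arms lay closer than 44 bp, so the shortest gaps in the pairs were at the smallest separation in the list.

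The gaps in weak-strong pairs were not spread evenly below the limit of 500 bp. In bins of 25 bp, 33 pairs (14.5%, interval 10.2 to 19.7%) had a gap of 50 to 74 bp, against 63 of the other 819 (7.69%, interval 5.96 to 9.73%). The next fullest bin of the weak-strong pairs, 75 to 99 bp, held 16. Gaps of 50 to 74 bp were 10.6% of those in pairs of 2 weak peaks (19 of 180) and 4.62% in pairs of 2 strong peaks (8 of 173), whose fullest bin was 200 to 224 bp with 20 pairs. Under 100 bp lay 59 of the weak-strong gaps (25.9%), 47 of the gaps between 2 weak peaks (26.1%) and 25 of those between 2 strong peaks (14.5%). Short gaps were thus about as common as between 2 weak peaks. The bins were chosen after the data were seen.

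**Figure D2:**
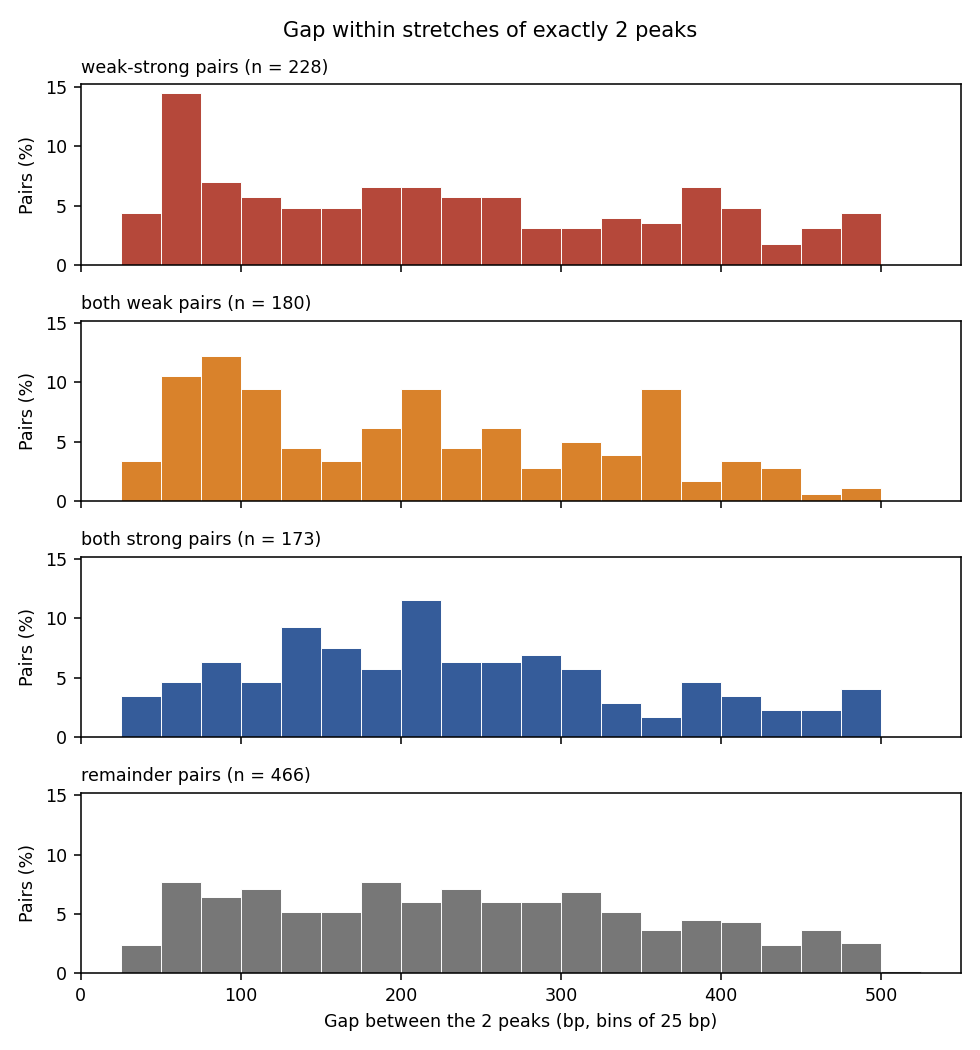
Gap between the 2 peaks (horizontal axis, bp, bins of 25 bp) as a percentage of the pairs of each kind (vertical axis), for weak-strong pairs, pairs of 2 weak peaks, pairs of 2 strong peaks and the remaining stretches of 2 peaks. The bin from 50 to 74 bp stands out in the weak-strong pairs with 33 of 228, and gaps are bounded at 500 bp by the joining rule.

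The score, width and gap of a pair were also set against each other within the ranges that the rule leaves. Across the 228 pairs, which share 1 peak call, Spearman's rho between the weak and the strong score was 0.025, and between the 2 widths it was −0.11. The gap had a rho of 0.11 with the weak score, −0.030 with the strong score, 0.048 with the weak width and −0.17 with the strong width. Within each kind of peak width followed score, with a rho of 0.75 for the weak and 0.39 for the strong peaks. The rule cuts both scores and the gap, which narrows their ranges, so these values are descriptions of the chosen pairs and do not show that the 2 peaks are unrelated.

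At like scores the weak peak was close in width to weak peaks elsewhere at low scores and wider at the median than weak peaks alone or in pairs of 2 weak peaks in each class from 15 up. From 10 to under 15, the class with the most members (92), the median width was 303 bp in weak-strong pairs, 298.5 bp in pairs of 2 weak peaks and 312 bp for weak peaks alone. From 15 to 20 it was 490 bp (37 peaks) against 480 and 429 bp, and from 20 to 30 it was 627 bp (33 peaks) against 590 and 580 bp. From 30 to 40 it was 830.5 bp (20 peaks) against 639 and 742 bp, and from 40 to 50 it was 1045 bp (14 peaks) against 875 and 859 bp. Against weak peaks in stretches of 3 or more, the difference of the medians was 42 bp from 15 to 20, 24 bp from 20 to 30, −68.5 bp from 30 to 40 and −25 bp from 40 to 50. The quartile ranges overlapped in every class, and no test of these differences was run.

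The strong peak of a weak-strong pair was wider at the median than a strong peak alone in each of the 5 score classes. From 200 to 250 the medians were 2105 bp for 64 members and 2014 bp for 244 single peaks. The difference was 79 bp from 250 to 300, 171.5 bp from 300 to 350 and 316.5 bp at 400 or above. It was widest from 350 to 400, with 3855.5 bp (quartiles 2188 and 5293.5 bp) for 30 members and 2731 bp (quartiles 2101 and 4088 bp) for 121 single peaks. Against pairs of 2 strong peaks the medians were also higher in all 5 classes, by 71.5 to 1257.5 bp. Against strong peaks in stretches of 3 or more they were higher in 2 classes and lower in 3. The quartile ranges overlapped throughout, and no test was run. Strong peaks of 5000 bp or more made up 31 of 228 members (13.6%, interval 9.43 to 18.7%) and 106 of 953 single strong peaks (11.1%, interval 9.20 to 13.3%).

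**Figure D3:**
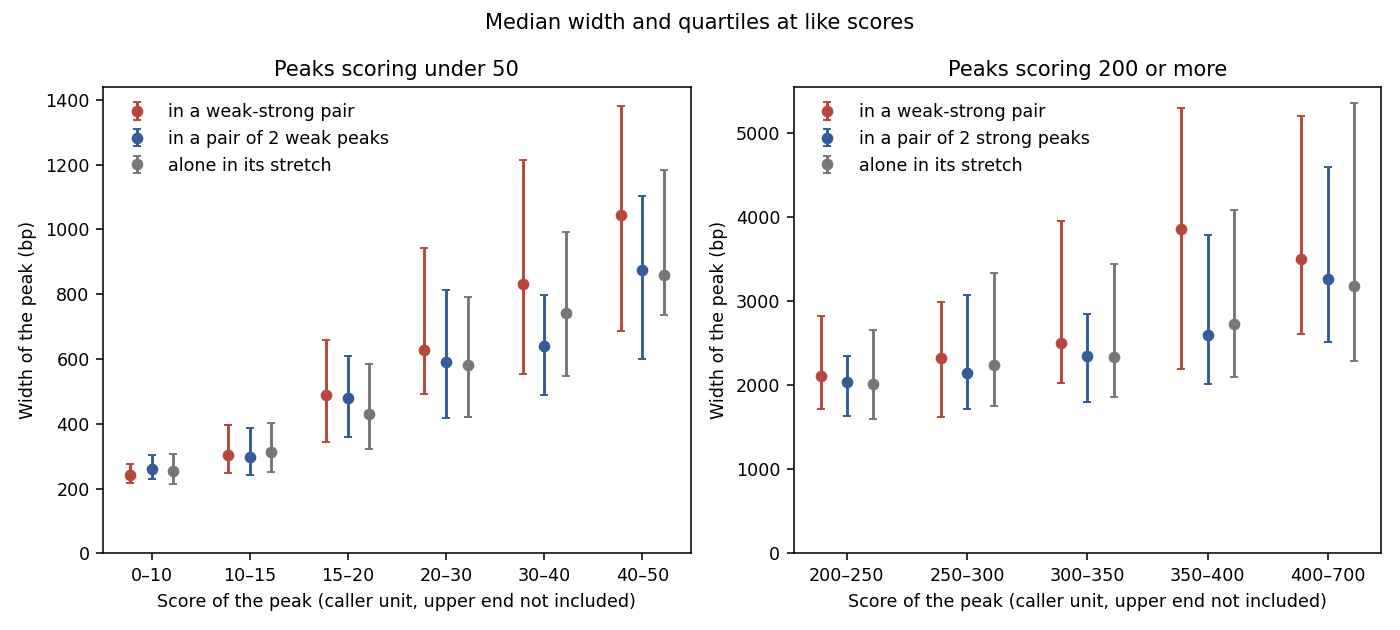
Width (vertical axis, bp) of weak peaks on the left and strong peaks on the right, by score class in the caller's unit (horizontal axis), for peaks in weak-strong pairs, in pairs of 2 weak or 2 strong peaks, and alone in their stretch. Points are medians and bars run between the quartiles; the bars overlap in every class, and the largest separation of medians is at strong scores of 350 to 400 (3855.5 bp in weak-strong pairs, 2731 bp alone).

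The weak peak lay on either side of the strong one. It was at the lower coordinate in 122 pairs and at the higher in 106, a share of 53.5% at the lower coordinate whose interval (46.8 to 60.1%) includes an even division. In the other stretches of 2 peaks the lower-scoring peak was at the lower coordinate in 46.6% (382 of 819, interval 43.2 to 50.1%). The share in weak-strong pairs was 57.1% on 2L (16 of 28), 51.3% on 2R (20 of 39), 57.9% on 3L (33 of 57), 47.3% on 3R (26 of 55) and 55.1% on X (27 of 49). Read towards the centromere, the weak peak was on the centromeric side in 104 pairs (45.6%, interval 39.0 to 52.3%). Without the strand of the genes, the upstream and downstream sides of a promoter cannot be told apart here.

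Weak peaks at the lower coordinate were wider than those at the higher one, a pattern noticed after the data were seen. Their median width was 457 bp at the lower coordinate (122 peaks, quartiles 305 and 708.5 bp) and 313.5 bp at the higher (106 peaks, quartiles 247.5 and 615.5 bp). The median was wider at the lower coordinate on each of the 5 arms that held pairs, by 121 bp on 2L, 16 bp on 2R, 153.5 bp on 3L, 83.5 bp on 3R and 215.5 bp on X. Scores moved with it, with a median of 15.1 at the lower coordinate and 13.2 at the higher, and were also higher at the lower coordinate on all 5 arms. The widths of the 2 sides were not compared at like scores, so a difference in width apart from score is not shown. Weak peaks under 400 bp made up 55 of 122 at the lower coordinate (45.1%) and 64 of 106 at the higher (60.4%). On 2R these shares ran the other way, at 60.0% and 57.9%. The gap moved less, at 211 and 197.5 bp, and the strong peak beside them had medians of 2471 and 2497.5 bp. The lower-scoring peak was narrower at the lower coordinate in pairs of 2 weak peaks (291.5 against 319.5 bp) and in the 466 with an intermediate score (1048.5 against 1130.5 bp), and wider in pairs of 2 strong ones (2268.5 against 2032 bp). The quartile ranges of both sides overlap widely, and the difference was not tested.

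**Figure D4:**
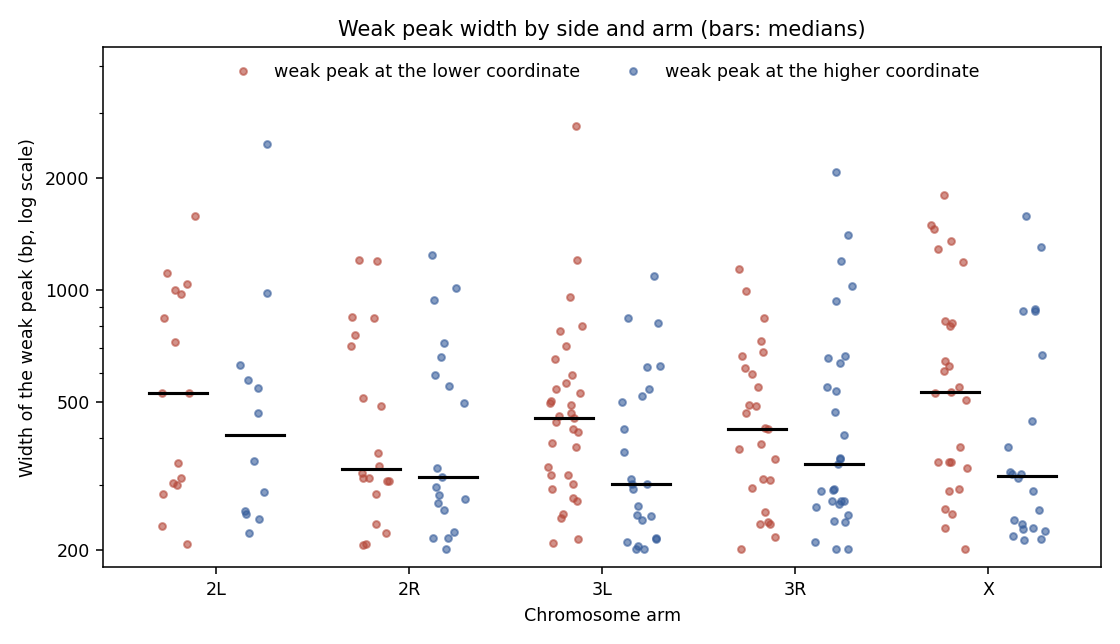
Width of the weak peak (vertical axis, bp, log scale) on each arm with weak-strong pairs (horizontal axis), for pairs with the weak peak at the lower coordinate on the left and at the higher coordinate on the right. Each point is 1 of the 228 weak peaks and bars are medians, which are wider at the lower coordinate on all 5 arms, by 16 to 215.5 bp, with widely overlapping points. Widths are not matched for score.

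Beyond the pair, the flank of the strong peak more often had a further peak close by than the flank of the weak peak. The next stretch lay within 1 kb on the weak side in 27 pairs (11.8%, interval 7.95 to 16.8%) and on the strong side in 58 (25.4%, interval 19.9 to 31.6%). The difference of −13.6 percentage points shrank to −6.72 with peaks under 15 dropped before joining, and it was −9.26 with strong peaks of 300 or more. In both settings the intervals of the 2 sides, taken as separate shares, allow a difference of 0. On every one of the 5 arms the strong side had more, from 8 on the weak side against 9 on the strong side on 2L to 3 against 16 on 3L. In the other stretches of 2 peaks the shares were 13.4% on the side of the lower-scoring peak and 19.4% on the side of the higher-scoring one. The order was the same in pairs of 2 weak peaks, with 21 of 180 (11.7%) against 37 of 179 (20.7%). It also held with both strong (26 against 35 of 173) and with an intermediate score (63 of 465 against 87 of 466). In each of these kinds the intervals of the 2 sides overlapped. The direction of the difference is therefore not particular to weak-strong pairs. Farther out the sides of the weak-strong pairs were alike. Within 5 kb the next stretch lay on the weak side in 47.8% and on the strong side in 49.1%, and the median distances were 5643 and 5621.5 bp. The nearer neighbour was on the weak side in 102 pairs (44.7%, interval 38.2 to 51.4%). This share turned to 54.5% with peaks up to 1000 bp apart joined and to 53.0% with peaks under 15 dropped. Only 6 pairs had a further stretch within 1 kb on both sides. The limit of 1 kb was chosen after the data were seen.

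The peaks met first outside the pair were of every score. On the weak side the next peak was weak in 92 pairs (40.4%) and strong in 82 (36.0%), and on the strong side it was weak in 88 (38.6%) and strong in 74 (32.5%). Of the 7245 peaks on the arms 2741 were weak and 2578 strong, so these shares came close to the make-up of the list. Other kinds of pair were not counted in this way. Where the next peak lay within 1 kb, it was strong in 14 of 27 cases on the weak side (interval 31.9 to 71.3%). On the strong side it was strong in 23 of 58 (interval 27.0 to 53.4%). In those 14 pairs the weak peak stood between 2 strong peaks, with the outer one 547 to 987 bp away (median 688 bp).

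**Figure D5:**
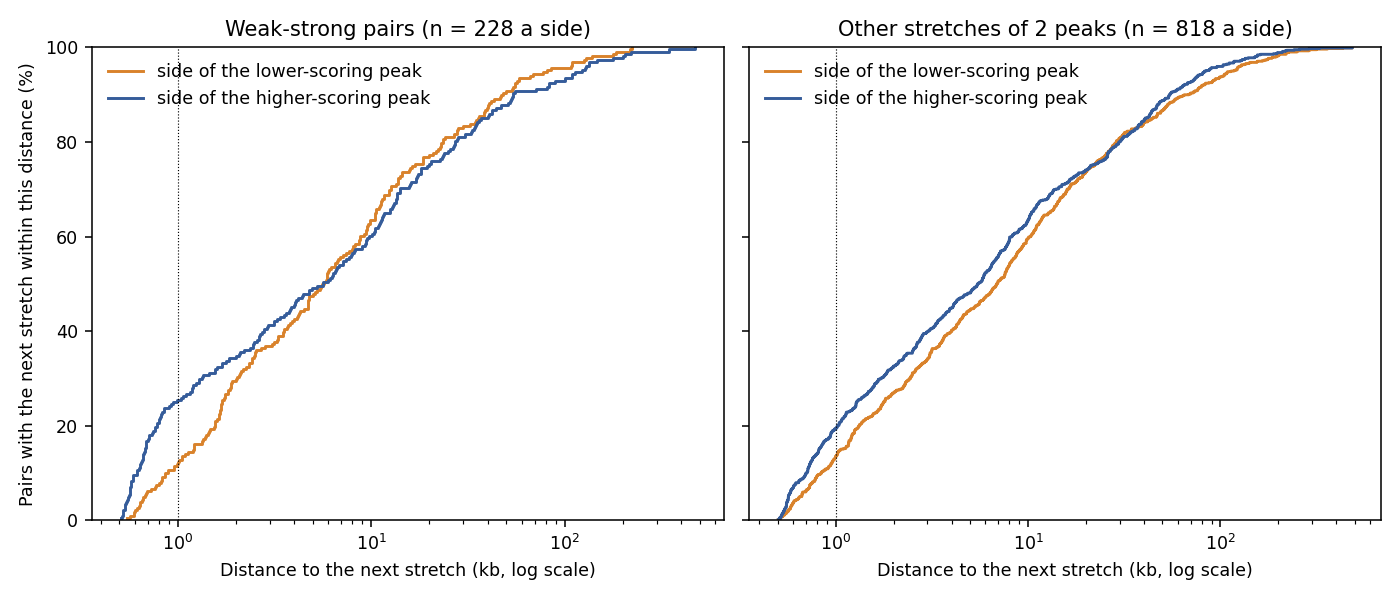
Share of pairs (vertical axis, %) with the next stretch within a given distance (horizontal axis, kb, log scale), on the side of the lower-scoring peak and on the side of the higher-scoring peak, for weak-strong pairs on the left and other stretches of 2 peaks on the right. The dotted line marks 1 kb, where the weak-strong pairs stand at 11.8% on the weak side and 25.4% on the strong side. The curves of the weak-strong pairs come together by 5 kb (47.8 and 49.1%). Those of the other stretches stand there at 44.5% on the lower-scoring side and 48.0% on the higher-scoring side. No curve begins below 500 bp because nearer peaks were joined.

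The pairs were found on 5 of the 6 arms. Arm 3L held 57, 3R 55, X 49, 2R 39 and 2L 28. The share among the stretches of 2 peaks was 27.8% on 3L (interval 21.8 to 34.5%), 24.7% on X (18.9 to 31.4%), 22.2% on 3R (17.2 to 27.9%), 17.6% on 2R (12.9 to 23.3%) and 16.8% on 2L (11.4 to 23.3%). The intervals of this share overlap among all 5 arms. As a share of the strong peaks of the arm, members were 11.4% on 3L, 11.1% on X and 8.57% on 3R. On 2R they were 7.54% and on 2L 5.96%, and no intervals were computed for these shares. Per length of arm there were 2.32 pairs per Mb on 3L, 2.19 on X, 1.97 on 3R, 1.85 on 2R and 1.22 on 2L. Chromosome 4, a small and largely heterochromatic chromosome, held none among its 8 stretches of 2 peaks, which allows a share of up to 36.9% (upper end of the exact interval). It carried 9 strong peaks in all.

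The arms differed in the medians of gap and weak width, with the longest gap and the widest weak peak on 2L. The median gap was 282 bp on 2L, 178 bp on 2R, 177 bp on 3L, 227 bp on 3R and 201 bp on X. The median width of the weak peak was 497.5 bp on 2L, 323 bp on 2R, 416 bp on 3L, 375 bp on 3R and 378 bp on X. That of the strong peak lay between 2338 bp on 3L and 2784 bp on 3R. The quartiles of the gap were 112.5 and 406 bp on 2L (28 pairs) and 104 and 356 bp on 3L (57 pairs). Differences between arms were not tested.

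The pairs were scattered along the arms, a median of 278 kb apart (quartiles 103 and 641 kb). Runs of pairs with no other stretch between them occurred 12 times, of which 10 held 2 pairs and 2 held 3, and the remaining 202 pairs had no pair as the next stretch. In 5 places pairs followed each other within 1 kb. On X, pairs at 6711459 to 6717842 and 6718380 to 6721243 stood 537 bp apart with their strong peaks, scoring 456 and 329, facing each other and a weak peak at each outer end. On 3R, 3 pairs in a row covered 19746695 to 19758995, with strong scores of 360, 409 and 555. The longest distance without a pair was 5319 kb on 2L, between pairs ending at 11004197 and starting at 16323232.

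On 2L the strongest peak of a pair lay at 8043437 to 8046058 and scored 506, with a weak peak of 348 bp scoring 11.6 at 8046133 to 8046480. The next on 2L were strong peaks at 9936080 to 9940802 (score 457) and 18686436 to 18688880 (448), with weak peaks of 223 and 1002 bp. All 3 had a short gap, of 74, 63 and 67 bp.

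On 2R the strongest, at 20646977 to 20651379, scored 529 and stood 131 bp from a weak peak of 553 bp. A strong peak at 17508963 to 17515652 scored 507 and had a weak peak of 1198 bp. The third, at 20483700 to 20496404, was the widest strong peak of any pair, with 12705 bp and a score of 448. A weak peak of 333 bp scoring 13.1 followed it after 54 bp. The weak peak beside the widest strong peak was thus narrower than the median weak peak.

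On 3L the strong peaks at 5802032 to 5806179, 2780812 to 2784491 and 16856198 to 16858135 scored 545, 475 and 446. Their gaps of 176, 340 and 356 bp were longer than those of the 3 pairs named on 2L. Over all pairs of the arm, the median gap was shorter on 3L (177 bp) than on 2L (282 bp). The weak peaks beside them scored 19.0, 18.5 and 19.3.

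The highest score of any pair, 582, belonged to the strong peak of 4415 bp on 3R at 908447 to 912861. Its weak peak, 387 bp wide with a score of 13.4, lay at 907793 to 908179, and the next stretch on that side lay 129339 bp away. The second on 3R, at 19755049 to 19758391, scored 555 and had a weak peak scoring 32.6 only 53 bp away. The third, at 23769195 to 23773810, scored 491.

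On X the strong peak at 9974478 to 9976597 scored 548 and stood 46 bp from a weak peak of 229 bp that scored 9.23. Strong peaks at 6712158 to 6717842 (456) and 2119216 to 2122441 (428) came next. The 3 pairs with the highest ratio of strong to weak score were all on X. They were the first and the third of these and a pair at 19575170 to 19581009, with scores of 427 and 6.66.

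The shortest gaps, 44 bp, occurred on 3R between the peaks at 11311671 to 11314182 and 11314227 to 11314475 and on 2R between those at 5765981 to 5766288 and 5766333 to 5769904. A gap of 45 bp on X, between the peaks at 6892802 to 6894866 and 6894912 to 6895126, came next. In all 3 the weak peak was narrow, at 249, 308 and 215 bp. The longest gaps were 498 bp on 3R, beside the weak peak at 1832095 to 1832826, 497 bp on X and 496 bp on 3R. Of these weak peaks 2 scored 49.3 and 49.6, close to the limit of 50, and the third 12.2.

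A few weak peaks were broad. The widest, 2770 bp on 3L at 1752833 to 1755602, scored 41.8 and stood 481 bp from a strong peak of 2783 bp, nearly its equal in width. The next, 2474 bp on 2L at 560885 to 563358, was wider than its strong partner of 931 bp, which scored 354. On its other side a peak scoring 366 began 691 bp away. The third, 2078 bp at 5597773 to 5599850 on 3R, lay beside a strong peak of 7861 bp. In 4 pairs the weak peak was wider than the strong one, 2 on 2L and 2 on X. In 3 of these 4 a further peak, scoring 366, 293 and 105, lay within 1 kb of the weak peak.

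After the widest strong peak on 2R came one of 10592 bp on 3R at 18182389 to 18192980, with a weak peak of 938 bp after a gap of 268 bp. The third, of 9348 bp on 2R at 19268156 to 19277503, had a weak peak of 282 bp that scored 10.1. In all 3 the weak peak lay at the higher coordinate.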

How the data were processed

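Tools in the submitters' processing notes are MACS2, BWA and CASAVA (1.7.0.2, 1.7.0.3), and BDGP5 is the build named there. Settings, pooling of replicates and the use of the input are not given in the sources used here. Per the file headers the coordinates are on FlyBase release 5. The score of each peak was deposited by the authors on an unnamed scale and was used only to choose, rank and describe peaks. A caller's smallest width, smallest separation and threshold can each set where 1 region is reported as 2 peaks.

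Width was end minus start plus 1, and gap was next start minus end minus 1. The joining was tested on simulated peaks. Pairs were chosen, and the comparisons set, with earlier results of these data known. Those named are the 3 highest strong scores per arm and the 3 extremes of gap, of either width and of score ratio. Quartiles and exact intervals were computed with Python 3.11.15, numpy 2.4.6, pandas 2.3.3 and scipy 1.17.1; figures used matplotlib 3.10.9. Alternatives changed the joining distance, both score limits and the lowest score kept. Genes and base sequence under the pairs were not analysed here, since the available gene table belongs to release 6 and no genome of release 5 was used. Depth is unknown, so its effect on precision cannot be given.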

Additional observations from a re-analysis of the deposited data

Results flagged for a closer look

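The same rule applied to the 498 peaks outside the 6 arms, which entered no comparison, found 2 weak-strong pairs among 10 stretches of 2 peaks. On 3LHet, heterochromatin of arm 3L, a strong peak at 2397821 to 2399097 scored 212 and a weak peak at 2399436 to 2399649 scored 9.53, with a gap of 338 bp. On Uextra, a string of unplaced assembly fragments, a strong peak at 18320361 to 18321258 scored 211 and a weak peak at 18319755 to 18320283 scored 23.2, with a gap of 77 bp. Both strong scores lie close to the limit of 200. Distances on Uextra need not be distances along a chromosome.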

How the results depend on the processing

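Of 55 alternative values for 8 results under 7 settings, 45 stayed within 1.5 times a count or inside the 95% interval of a median or share, 10 moved farther and 0 turned their sign. The number of pairs was 108 with strong peaks of 300 or more and 134 with peaks under 15 dropped first. The median gap was 124 bp with a joining distance of 250 bp and 268 bp with 1000 bp, as the distance bounds the gap. The weak width was 318.5 bp with weak peaks under 25, 493 bp under 100 and 644.5 bp with peaks under 15 dropped; the strong width was 3001 bp with strong peaks of 300 or more. These limits select on score, which width follows. The share with the nearer neighbour on the weak side was 54.5% with 1000 bp joined and 53.0% with peaks under 15 dropped, so that it changed sides of 50%, and the cause was not tested. The difference in near neighbours, weak side minus strong side, was −13.6 percentage points (−23.7 to −3.16, from the bounds of both shares). It was −6.72 (−18.8 to 5.71) with peaks under 15 dropped and −9.26 (−24.5 to 6.57) with strong peaks of 300 or more, both of which include 0. Its settings were added after the data were seen, and joining at 1000 bp leaves no value. No paired analysis was possible because the deposited peaks carry no replicate, and none could be left out. That limit concerns the libraries. The flanks of a weak-strong pair are matched within the pair, with a stretch within 1 kb on the weak side in 27, on the strong side in 58 and on both in 6. The bounds given for the difference treat the sides as separate shares, and no matched test was run.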
